A study of Mus musculus with 7 samples.

Results

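RNA of 10 genes of MHC class I antigen processing and presentation was followed in ILC2s sorted from mouse hearts. ILC2s (type 2 innate lymphoid cells) are tissue lymphocytes that lack antigen receptors and respond to interleukin 33 through its receptor ST2. The genes were taken from the table by symbol, by a rule that uses no measured value: H2-K1, H2-D1 and B2m (the class I molecule), Tap1, Tap2 and Tapbp (peptide transport and loading), Psmb8, Psmb9 and Psmb10 (the immunoproteasome) and Nlrc5 (a transcriptional activator of class I genes). All 10 were among the 55335 genes of the table, and all 10 were among the 17015 that passed the filter on low counts. The 7 libraries were 3 of naive hearts and 4 of cardiac allografts from Balb/C donors in C57BL/6 (B6) recipients, harvested 7 days after transplantation in a model of acute rejection. Cells were gated as CD45+, lineage-negative and ST2+, and every library pooled cells of 4 to 7 hearts, so a library and not an animal was the replicate. The strain, sex and age of the naive hearts are not given in the sources used here, and the labels carry the time of 7 days on the naive libraries too. The gate does not separate cells of the donor from cells of the recipient. The comparison asked how the RNA of ILC2s inside a graft differs from that of ILC2s in the resting heart.

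In nearly all nucleated cells, the proteasome cuts cytosolic proteins into peptides, the transporter made of Tap1 and Tap2 carries them into the endoplasmic reticulum, and tapasin (Tapbp) holds an empty class I molecule at the transporter until a fitting peptide is bound. The complex of heavy chain, beta-2 microglobulin and peptide then moves to the surface, where CD8+ T cells and NK cells read it. In lymphocytes Nlrc5 keeps many of these genes on, and interferon gamma raises them in most tissues. In a mismatched graft the class I molecules themselves are major targets of rejection.

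The promoters of the class I genes share short elements to which the Nlrc5 complex, nuclear factor kappaB and interferon regulatory factors are known to bind. They are shown because many of the 10 genes are known to share regulators, and because the transcripts of H2-K1 and H2-D1 on the one hand and of Tap1 and Psmb9 on the other are compared below. The bases are those of the mouse reference in RefSeq (build GRCm38.p6), 5′ to 3′ on the strand of the gene and ending just before RefSeq's start of transcription. Capitals mark 4 motifs searched on both strands: GGGATTCCC (the kappaB element of enhancer A), GAANNGAAA (an interferon response core), TGACG (the core of the X2 box) and CCAAT (the Y box). H2-K1 is at chr17:34000348-34000597 (minus strand), H2-D1 at chr17:35262844-35263093 (plus strand) and B2m at chr2:122147437-122147686 (plus strand).
H2-K1: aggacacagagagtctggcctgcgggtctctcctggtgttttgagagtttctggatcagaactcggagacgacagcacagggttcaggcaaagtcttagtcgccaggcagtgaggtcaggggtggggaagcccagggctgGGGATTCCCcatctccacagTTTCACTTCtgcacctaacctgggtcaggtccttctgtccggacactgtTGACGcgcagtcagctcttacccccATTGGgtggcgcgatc
H2-D1: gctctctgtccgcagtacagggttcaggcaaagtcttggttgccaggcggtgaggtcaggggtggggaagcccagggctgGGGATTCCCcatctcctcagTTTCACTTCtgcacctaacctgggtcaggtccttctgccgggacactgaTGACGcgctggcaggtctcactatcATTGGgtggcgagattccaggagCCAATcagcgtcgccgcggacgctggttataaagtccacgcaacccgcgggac
B2m: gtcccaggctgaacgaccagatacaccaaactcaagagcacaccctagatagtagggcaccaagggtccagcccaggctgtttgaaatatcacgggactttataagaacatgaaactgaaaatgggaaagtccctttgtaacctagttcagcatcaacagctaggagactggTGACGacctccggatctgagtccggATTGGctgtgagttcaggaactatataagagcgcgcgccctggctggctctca
Tap1 and Psmb9 are transcribed away from each other from RefSeq starts 226 bases apart, and the 225 bases between them (chr17:34187331-34187555, on the strand of Tap1) serve both genes.
Tap1-Psmb9: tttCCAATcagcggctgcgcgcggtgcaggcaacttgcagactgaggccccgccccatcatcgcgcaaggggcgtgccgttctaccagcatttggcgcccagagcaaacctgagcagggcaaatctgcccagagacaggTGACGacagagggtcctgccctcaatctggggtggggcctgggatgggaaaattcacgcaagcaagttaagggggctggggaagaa

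Promoters of 8 of the 10 genes were in the RefSeq table, those of Tap2 and Nlrc5 not being among them. Within the 250 bases before the start, the kappaB element was found in 2 of the 8 (H2-K1 and H2-D1) against 0.3% of 32851 mouse promoters of that length. The interferon response core, as the string GAANNGAAA, was found in the same 2, against 6.3% of promoters. Other spacings were not searched. The B2m sequence above holds gaaactgaaa, which this string does not match, so the search does not show that B2m lacks an interferon element. TGACG, the letters of the X2 core, stood in 5 of the 8 (H2-K1, H2-D1, B2m, Tap1 and Psmb9), against 17.8%. CCAAT, the letters of the Y box, stood in those 5 and in Tapbp, against 33.8%. Counted from the start, TGACG began at −41, −101 and −78 in H2-K1, H2-D1 and B2m, and ATTGG followed at −16, −76 and −53. In Tap1, CCAAT began at −222 and TGACG at −86. In Psmb9, CGTCA began at −144 and ATTGG at −8. Tapbp held no TGACG. Whether these letters form an X2 and a Y box in Tap1, Psmb9 and Tapbp was not tested. Psmb8 and Psmb10 held none of the 4 letter strings in this window. RefSeq's starts of H2-D1, Tapbp, Psmb8, Psmb9 and Psmb10 lie inside the genes as GENCODE annotates them, so sequence before other annotated starts was not searched. The windows of H2-K1 and H2-D1 aligned over 177 columns with 161 identical bases (91%), with the 4 motifs in the same order. Such matches describe letters only, and binding was not measured.

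The libraries held between 29107326 and 53044907 counts, and naive replicate 2 stood apart from the other 6. Mitochondrial genes took 26.5% of its counts, against 2.04% to 3.11% elsewhere. The summed level of 12 ILC2 markers was 1169 CPM (counts scaled to the library total) in it, against 11363 and 15482 CPM in naive replicates 1 and 3 and 11513 to 12162 CPM in the allografts. Il1rl1, which encodes the ST2 of the gate, was at 6.79 CPM in naive replicate 2 and at 343 to 756 CPM in the others. The markers of kidney tubule (6 genes) summed to 9762 CPM, of endothelial cells (6 genes) to 426 CPM and of erythroid cells (5 genes) to 2937 CPM in that library, against at most 244, 43.1 and 786 CPM in any other. The ILC2 label was therefore borne out by its markers in 6 of the 7 libraries, and the results below are given with and without naive replicate 2. Among other leukocytes, the summed level of 6 dendritic cell markers was 79.4 to 103 CPM in the allografts and 12.7 to 31.8 CPM in the naive libraries, with Flt3, Clec9a, Itgax and Cd209a at 0 in naive replicates 1 and 3. Sums of 7 T cell markers were 200.2 to 248 CPM against 13.7 to 179 CPM, and of 4 NK cell markers 33.4 to 58.0 CPM against 0.641 to 30.7 CPM. B cell markers (6 genes) summed to 88.6 to 145 CPM in the allografts and to 117, 10.02 and 0 CPM in naive replicates 1 to 3. Macrophage markers (8 genes) summed to 155 to 235 CPM against 2.49, 295 and 466 CPM. These cells express class I genes too, and their part in the values below was not tested. In bulk RNA, fewer cells of a type and less RNA per cell cannot be told apart.

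None of the 10 genes differed between allograft and naive ILC2s by the main test, edgeR's quasi-likelihood test with Benjamini-Hochberg adjustment at 0.05 over all genes tested. The test called 6 of 17015 genes (0.0353%), so a count of 0 among 10 is near the background. At an unadjusted p under 0.05, which 10.3% of all genes reached, the count among the 10 was 1 (Tap2, higher), and DESeq2's Wald test, which called 1012 genes (5.95%) after adjustment, called none of the 10 and had 1 at an unadjusted p under 0.05, again Tap2 (higher; background 7.32%). Without naive replicate 2 the edgeR test called 560 of 18037 genes (3.10%) and again none of the 10. The fitted log2 fold changes of the 10 genes had a median of 0.23, beside −0.01 over all genes tested. Above 0 were 8 of 10, beside 8408 of 17015 genes. Without naive replicate 2 the median was −0.19, beside 0.23 over all genes. In that fit 4 of 10 were above 0, beside 9769 of the 17015 genes of the main test.

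**Figure D1:**
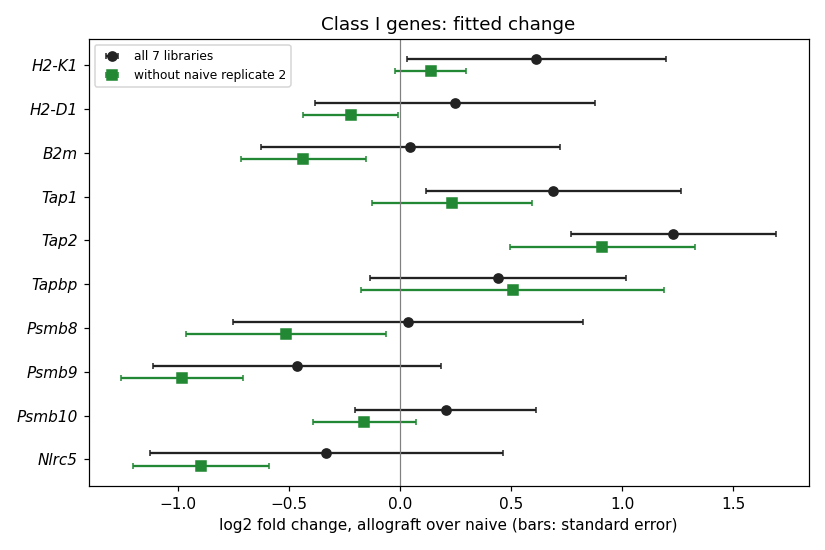
Fitted log2 fold change, allograft over naive, of the 10 class I genes (edgeR); bars are 1 standard error, black circles are from all 7 libraries and green squares from the fit without naive replicate 2. The circles lie between −0.46 (Psmb9) and 1.23 (Tap2), and H2-D1, B2m, Psmb8 and Psmb10 are above 0 with all libraries and below 0 without that library.

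H2-K1 encodes the heavy chain of the K molecule. It was at 1597, 206 and 1560 CPM in naive replicates 1 to 3 and at 1730, 1811, 1926 and 1718 CPM in allograft replicates 1 to 4. Every allograft was above every naive library, which was so for 1 of the 10 genes and for 12.5% of all genes tested. Group means were 1121 ± 793 CPM (SD, n = 3) and 1796 ± 95.8 CPM (SD, n = 4). The log2 fold change was 0.61 (SE 0.58, edgeR adjusted p = 0.821), and without naive replicate 2 it was 0.14 (SE 0.16, edgeR adjusted p = 0.703). The allografts stayed within 1.12-fold of each other, and naive replicates 1 and 3 within 1.02-fold.

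H2-D1 encodes the heavy chain of the D molecule. Its levels were 4966, 674 and 5034 CPM in the naive libraries and 5467, 3823, 4506 and 3893 CPM in the allografts. Naive replicates 1 and 3 lay inside the range of the allografts, and naive replicate 2 far below it. Its log2 fold change was 0.25 (SE 0.63, edgeR adjusted p = 0.954) with all libraries and −0.22 (SE 0.21, edgeR adjusted p = 0.628) without naive replicate 2.

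B2m encodes beta-2 microglobulin, the invariant light chain without which heavy chains do not reach the surface. It was counted at 8998, 871 and 5088 CPM in the naive libraries and at 6552, 4441, 5624 and 4760 CPM in the allografts. The highest and the lowest values were both naive, and the allografts fell between them. The fit gave a log2 fold change of 0.05 (SE 0.67, edgeR adjusted p = 0.995), or −0.44 (SE 0.28, edgeR adjusted p = 0.427) without naive replicate 2. Together H2-K1, H2-D1 and B2m took 1.56%, 0.175% (95% Wilson interval 0.174% to 0.176%) and 1.17% of all counts in naive replicates 1 to 3 and 1.01% to 1.38% in the allografts. The interval covers counting error only.

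Sequence shared with relatives touches the heavy chains. Of the 75-base words in the longest annotated transcript, 1.3% of H2-K1 and 6.9% of H2-D1 also occur in other genes, and 0% of B2m. With 29 H2 class I genes summed to 1 feature, of which 19 held counts, the log2 fold change was 0.39 (SE 0.69, edgeR adjusted p = 0.928). The heavy chain genes differ in sequence between Balb/C and B6 mice, counts by allele were not analysed here, and how reads of the Balb/C alleles were counted was not tested.

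**Figure D2:**
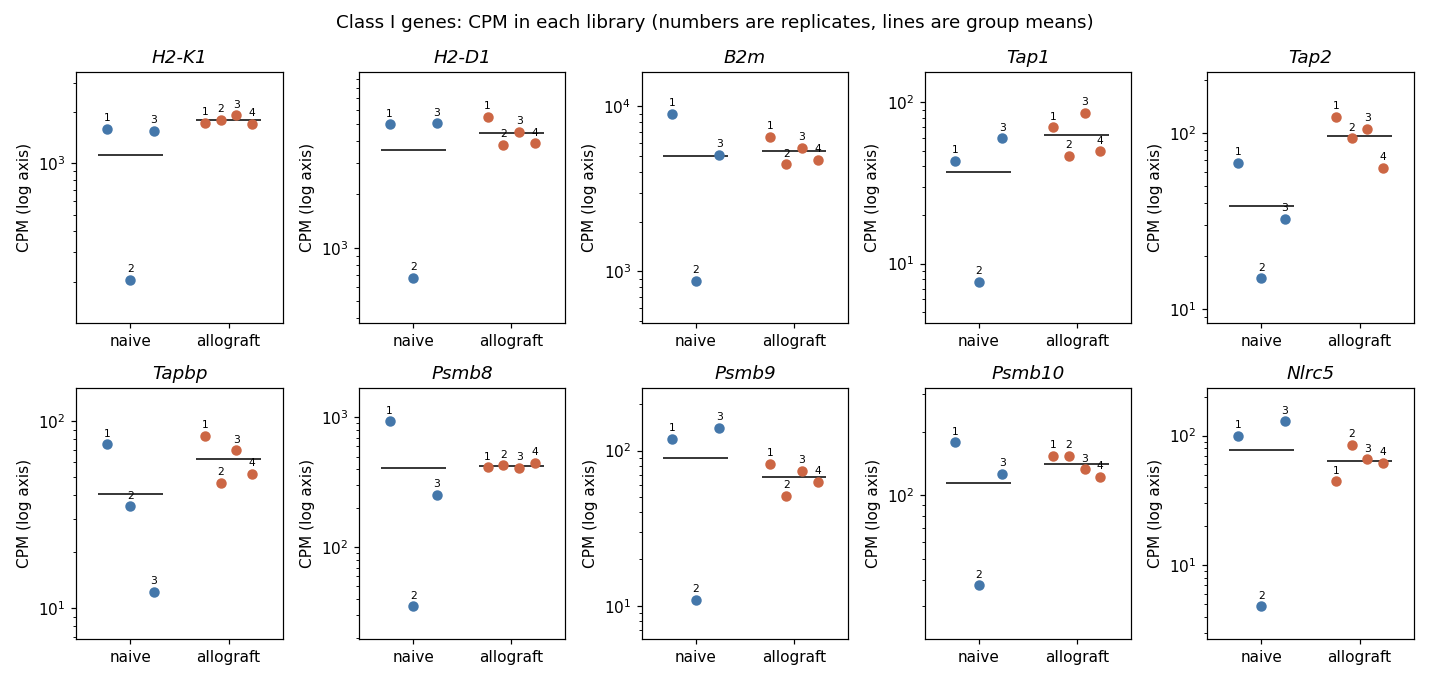
CPM of each of the 10 class I genes in every library (log axis), with the replicate number above each point and a line at the group mean. Naive replicate 2 is the lowest of the 7 libraries for every gene except Tapbp, where naive replicate 3 is lowest at 12.3 CPM.

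Tap1 encodes 1 chain of the peptide transporter. It was at 43.3, 7.69 and 59.8 CPM in the naive libraries and at 69.8, 46.6, 85.6 and 49.5 CPM in the allografts. Naive replicate 3 lay among the allografts, and naive replicates 1 and 2 below them. The fit gave a log2 fold change of 0.69 (SE 0.57, edgeR adjusted p = 0.784), or 0.24 (SE 0.36, edgeR adjusted p = 0.788) without naive replicate 2.

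Tap2 encodes the other chain, and its fitted change was the highest of the 10 in both fits. It was at 67.8, 14.9 and 32.4 CPM in the naive libraries and at 124, 93.2, 106 and 63.4 CPM in the allografts. The groups overlapped only in naive replicate 1, which was above allograft replicate 4. Means were 38.4 ± 26.9 CPM (SD, n = 3) and 96.5 ± 25.4 CPM (SD, n = 4). The log2 fold change was 1.23 (SE 0.46), with an unadjusted p of 0.0303 and an adjusted p of 0.389 by edgeR. Leaving naive replicate 2 out, it was 0.91 (SE 0.42, edgeR adjusted p = 0.278), and the adjusted p ranged from 0.1097 to 1 over the 16 alternative settings. Exons of Tap2 overlap those of the antisense genes Gm20496 (165 bases) and Gm15821 (533 bases), and whether counting used the strand is not given in the sources used here.

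Tapbp encodes tapasin, the chaperone that bridges the transporter and the class I molecule. It was at 74.9, 35.04 and 12.3 CPM in the naive libraries and at 83.2, 46.6, 69.7 and 52.2 CPM in the allografts. It was the 1 gene of the 10 for which naive replicate 2 was not the lowest library, and the one for which naive replicates 1 and 3 were farthest apart, by 6.11-fold. Its log2 fold change was 0.44 (SE 0.58, edgeR adjusted p = 0.884), or 0.51 (SE 0.68, edgeR adjusted p = 0.753) without naive replicate 2. Its exons overlap 149 bases of Zbtb22 on the same strand and 904 bases of the antisense gene Gm19412, so part of its count may belong to them.

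Psmb8, Psmb9 and Psmb10 are the catalytic subunits of the immunoproteasome, the form of the proteasome that favours peptides with the ends that class I molecules bind. Psmb8 was at 935, 35.2 and 253 CPM in the naive libraries and at 415, 429, 409 and 448 CPM in the allografts. The allografts agreed within 1.09-fold, the narrowest spread of the 10 genes, while naive replicates 1 and 3 lay on either side of them. Its log2 fold change was 0.04 (SE 0.79, edgeR adjusted p = 0.996), or −0.51 (SE 0.45, edgeR adjusted p = 0.588) without naive replicate 2. Exons of Psmb8 overlap 498 bases of the antisense gene Gm20496, so part of its count may belong to that gene.

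Psmb9 was at 119, 11.0 and 140.1 CPM in the naive libraries and at 82.3, 51.3, 74.4 and 62.8 CPM in the allografts. All 4 allografts were below naive replicates 1 and 3 and above naive replicate 2. With all libraries the log2 fold change was −0.46 (SE 0.65, edgeR adjusted p = 0.896). In the fit that left naive replicate 2 out it was −0.98 (SE 0.27), with an unadjusted p of 0.0102 and an adjusted p of 0.117 by edgeR. Psmb9 and Tap1 share 212 exonic bases on opposite strands in the annotation, where reads of the pair could not be told apart without strand.

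Psmb10 was at 178, 37.7 and 127 CPM in the naive libraries and at 153.5, 153.2, 133 and 122 CPM in the allografts. Naive replicate 1 was the highest library and naive replicate 3 lay inside the allograft range. The fit gave a log2 fold change of 0.20 (SE 0.41, edgeR adjusted p = 0.938), or −0.16 (SE 0.23, edgeR adjusted p = 0.771) without naive replicate 2.

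Nlrc5 encodes the class I transactivator. Its exons overlap 78 bases of the noncoding gene 9330175E14Rik on the other strand. Nlrc5 was at 100.1, 4.79 and 129 CPM in the naive libraries and at 44.4, 84.6, 65.5 and 61.6 CPM in the allografts. As for Psmb9, the allografts lay below naive replicates 1 and 3 and above naive replicate 2, which held 4.18% of the mean of the other naive libraries, the smallest share among the 10 genes. The log2 fold change was −0.33 (SE 0.80, edgeR adjusted p = 0.949) with all libraries. Leaving naive replicate 2 out, it was −0.90 (SE 0.31), with an unadjusted p of 0.0245 and an adjusted p of 0.187 by edgeR. Against naive replicates 1 and 3 alone, 2 of the 10 genes (Psmb9 and Nlrc5) had every allograft lower, beside 7.15% of all genes, and 1 (H2-K1) had every allograft higher, beside 21.0%. At an unadjusted p under 0.05 in that fit the same 2 genes were lower, beside 4.67% of all genes, and none was higher, beside 15.6%.

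Per transcript length, the genes spanned a wide range in both groups. In FPKM (fragments scaled to transcript length and library total), the allograft level was 5385 ± 937 for B2m, 1484 ± 249.9 for H2-D1, 530.0 ± 29.9 for H2-K1, 109 ± 4.48 for Psmb8 and 71.4 ± 7.75 for Psmb10 (SD, n = 4). The ranges of these 5 genes over the allografts did not overlap each other. Then came Tap2 at 22.1 ± 5.76, Psmb9 at 16.0 ± 3.18, Tapbp at 14.98 ± 3.94, Tap1 at 9.93 ± 2.91 and Nlrc5 at 6.53 ± 1.70 FPKM (SD, n = 4), where neighbours in the order overlapped. In the naive libraries the spread was wider, with naive replicate 2 far below the others: B2m was at 5116 ± 4124, H2-D1 at 1218 ± 847 and H2-K1 at 337 ± 236 FPKM (SD, n = 3).

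Naive replicate 2 held less of the class I transcripts than the other naive libraries did. Its CPM as a share of the mean of naive replicates 1 and 3 had a median of 13.3% over the 10 genes, beside 46.2% over the 4939 genes with an average log2 CPM of at least 5. The share was 13.1% for H2-K1, 13.5% for H2-D1 and 12.4% for B2m. As the median of Psmb5, Psmb6 and Psmb7, the constitutive subunits that the immunoproteasome replaces, it was 94.7%. That was the highest median among the pathway lists described below for which a median could be formed. The lowest were 28.7% (class I transcription and interferon gamma signalling) and 39.7% (peptide loading and trimming). The summed ILC2 markers stood at 8.71%, so a low share was not particular to the 10 genes. With all naive libraries the median fold between the highest and the lowest was 7.76 for the 10 genes and 4.12 for the 4939. Between naive replicates 1 and 3 it was 1.39 and 1.88, and among the allografts 1.54 and 1.45.

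Ratios within a library do not depend on how libraries are scaled, so 6 ratios of FPKM were each given an exact two-sided permutation test over samples, in which p cannot go below 0.0286. The ratio of Psmb8 to Psmb5, the subunit it replaces, was 1.25, 0.0834 and 1.78 in the naive libraries and 0.843, 1.02, 1.01 and 1.159 in the allografts. That of Psmb9 to Psmb6 was 0.118, 0.0126 and 0.303 against 0.0759, 0.0542, 0.0861 and 0.0741. That of Psmb10 to Psmb7 was 3.51, 1.57 and 4.86 against 3.22, 3.76, 2.95 and 2.59. In all 3 ratios naive replicate 2 was the lowest library and naive replicate 3 the highest. With all libraries the differences of the mean log2 ratios were 0.81, −0.10 and 0.05, none with an exact permutation p under 0.8 or an adjusted p under 1. Without naive replicate 2 they were −0.57, −1.40 and −0.41, so Psmb8 to Psmb5 and Psmb10 to Psmb7 changed sign. Psmb10 to Psmb7 was also below 0 without allograft replicate 2 (−0.04). Psmb9 to Psmb6 rose above 0 without naive replicate 1 (0.21), naive replicate 3 (0.89) or allograft replicate 2 (0.04). Without naive replicate 2 the exact permutation p was 0.0667 for Psmb8 to Psmb5 and for Psmb9 to Psmb6 (adjusted 0.2). That is the smallest p possible without that library. For Psmb10 to Psmb7 the exact permutation p was then 0.2 (adjusted 0.3).

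The 3 genes of the class I molecule were also set against each other. The ratio of H2-D1 to B2m was 0.184, 0.258 and 0.330 in the naive libraries and 0.278, 0.287, 0.267 and 0.272 in the allografts, where it kept within 1.07-fold. Between naive replicates 1 and 3 the ratios to B2m differed more than H2-K1 (1.02-fold) and H2-D1 (1.01-fold) did alone. The ratio of H2-K1 to B2m was 0.0519, 0.0692 and 0.0897 against 0.0773, 0.119, 0.1002 and 0.106. The ratio of H2-K1 to H2-D1 was 0.282, 0.268 and 0.272 in the naive libraries, within 1.05-fold with naive replicate 2 included, and 0.278, 0.416, 0.375 and 0.388 in the allografts. Allograft replicate 1 was within the naive range and the other 3 were above it. The mean log2 differences were 0.14 for H2-D1 to B2m (exact permutation p = 0.6, adjusted 1), 0.54 for H2-K1 to B2m (exact permutation p = 0.0857, adjusted 0.257) and 0.39 for H2-K1 to H2-D1 (exact permutation p = 0.0857, adjusted 0.257). The differences against naive replicates 1 and 3 were 0.16, 0.54 and 0.38 (exact permutation p = 0.6, 0.133 and 0.267, adjusted 0.6, 0.267 and 0.32). Adjustment was over the 6 ratios.

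Tap1 and Psmb9, which start from the 225-base stretch shown above, did not keep a fixed ratio. Tap1 to Psmb9 was 0.244, 0.465 and 0.285 in the naive libraries and 0.566, 0.607, 0.769 and 0.527 in the allografts, with every allograft above every naive library and a mean log2 difference of 0.94, or 1.21 against naive replicates 1 and 3. The ratio of Tap2 to Psmb8, neighbours in the same part of the MHC, was 0.0649, 0.380 and 0.115 against 0.267, 0.194, 0.231 and 0.127, where naive replicate 2 was the highest. These 2 ratios were chosen after their values were seen and were given no test. Tap1 to Tap2, Psmb9 to Psmb8 and Nlrc5 to Irf1 were chosen in the same way, with mean log2 differences of −0.38, −0.84 and 1.76. Among the ratios so chosen, Tap1 to Psmb9 was the only one in which the groups did not overlap with all libraries. How often ratios of other gene pairs separate the groups was not counted. Tap1 and Psmb9 share 212 exonic bases on opposite strands, and the effect of this overlap on their ratio was not tested.

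**Figure D3:**
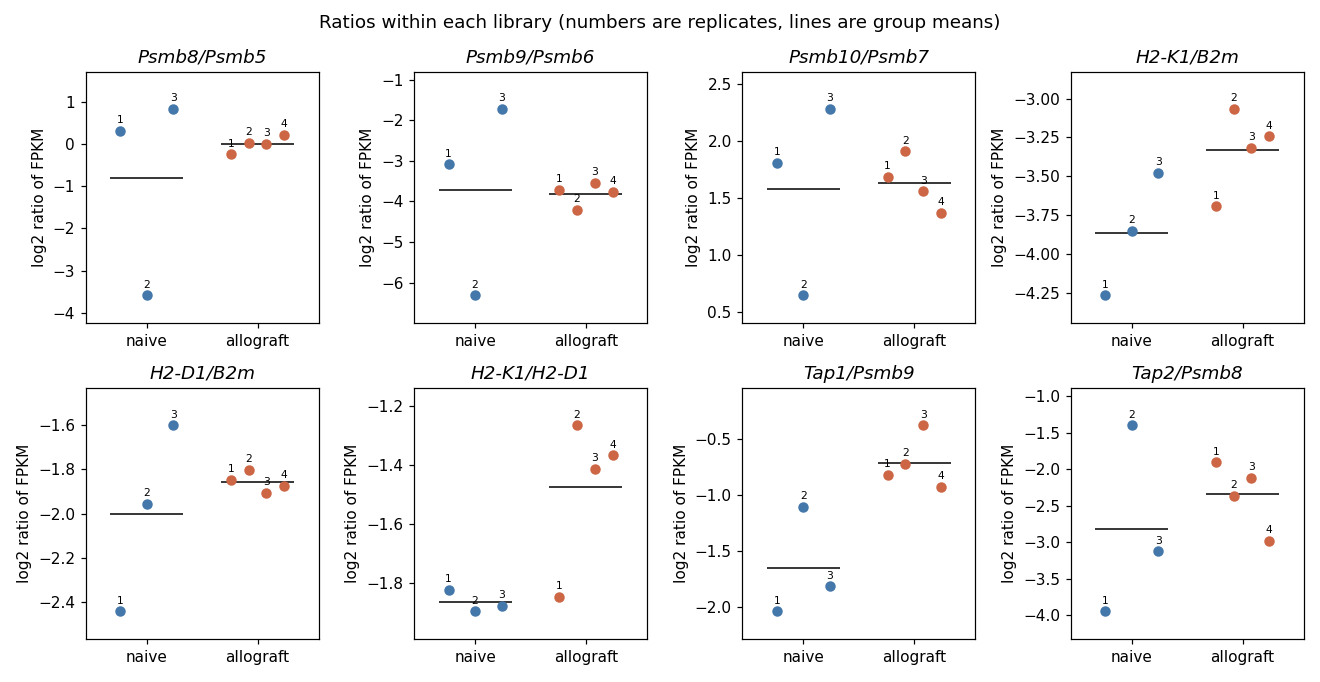
Log2 ratios of FPKM within each library, with the replicate number above each point and a line at the group mean; Tap1/Psmb9 and Tap2/Psmb8 were chosen after their values were seen. The 3 naive libraries lie within 1.05-fold in H2-K1/H2-D1, and all 4 allografts lie above all 3 naive libraries in Tap1/Psmb9.

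By position, 7 of the 10 genes lie in the MHC on chromosome 17 (GRCm38, GENCODE M21): Tapbp at chr17:33915899-33929292, H2-K1 at chr17:33996017-34000347, Psmb9 at chr17:34181987-34187764, Tap1 at chr17:34187553-34197225, Psmb8 at chr17:34197721-34201454, Tap2 at chr17:34203527-34216321 and H2-D1 at chr17:35262730-35267499. H2-K1 and Psmb9 are on the minus strand and the other 5 on the plus strand. B2m is at chr2:122147686-122153083, Psmb10 at chr8:105935735-105938444 (minus strand) and Nlrc5 at chr8:94434356-94527272. The genes whose allografts lay below naive replicates 1 and 3, Psmb9 and Nlrc5, are on different chromosomes.

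Around the 10 genes, 7 lists with 69 further genes of the pathway were read from the same fit, 66 of which were tested. None passed the adjusted threshold (edgeR), and 44 of the 66 had a log2 fold change above 0, with a median of 0.18. Over all genes tested, 8408 of 17015 were above 0, with a median of −0.01. Without naive replicate 2, 36 of the 66 were above 0, with a median of 0.05. In that fit 9769 of the same 17015 genes were above 0, with a median of 0.19. With all libraries and an unadjusted p under 0.05 (edgeR), 2 were higher (Calr and H2-Q10, background 6.41%) and 2 lower (Lap3 and Irf1, background 3.86%). Every allograft was above every naive library for 8 of the 66, beside 12.5% of all genes, and below for 1, beside 2.15%. Without naive replicate 2 the adjusted test called 2 of the 66, Irf1 lower and Hfe higher, beside 3.10% of all genes. DESeq2's Wald test on all libraries called 4 (H2-Q10 and Nfya higher, Irf1 and Lap3 lower), beside 5.95%. Both counts are near the share over all genes.

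In the list of 8 peptide loading and trimming genes, 5 had log2 fold changes above 0 (3 without naive replicate 2). Their median was 0.22 (−0.08 without that library). Calr, the calreticulin of the loading complex, was at 325, 118 and 269 CPM in the naive libraries and at 408, 482, 375 and 535 CPM in the allografts, without overlap (log2 fold change 0.79, edgeR adjusted p = 0.477). Uggt1, which marks misfolded glycoproteins for another round of folding, had a log2 fold change of 0.81 (edgeR adjusted p = 0.513). Of 5 cytosolic peptidases tested, 3 were above 0, with a median of 0.15 (2 and −0.27 without naive replicate 2). Lap3, a leucine aminopeptidase that trims peptides, was at 59.7, 66.2 and 54.0 CPM in the naive libraries and at 26.3, 20.9, 25.1 and 23.98 CPM in the allografts. Naive replicate 2 was the highest library for Lap3 and the groups did not overlap. Its log2 fold change was −1.57 (SE 0.34, edgeR adjusted p = 0.144), or −1.28 (edgeR adjusted p = 0.0626) without naive replicate 2. Blmh, bleomycin hydrolase, had a log2 fold change of 0.55 (edgeR adjusted p = 0.701).

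Of the 3 constitutive catalytic subunits, Psmb5 had a log2 fold change of −0.25, Psmb6 of 0.01 and Psmb7 of 0.26. With all libraries no edgeR adjusted p among them was under 0.868. Without naive replicate 2 the log2 fold changes were −0.09, 0.31 and 0.19. Of 11 other core subunits 7 were above 0, with a median of 0.05 (5 and −0.01 without naive replicate 2). With all libraries the smallest p belonged to Psmb1 (0.39) and Psma6 (0.22, log2 fold changes). Of 5 activator and assembly genes 4 were above 0, with a median of 0.27 (5 and 0.42 without naive replicate 2). Psme1 and Psme2, the chains of the interferon-inducible activator PA28, had log2 fold changes of 0.54 (edgeR adjusted p = 0.650) and 0.27 (edgeR adjusted p = 0.863). Psme3, which encodes another activator, was above every naive library in each allograft, with a log2 fold change of 0.47 (edgeR adjusted p = 0.735).

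Of 14 class Ib and class I-like genes tested, 9 were above 0, with a median of 0.22 (9 and 0.16 without naive replicate 2). H2-Q10, a class Ib heavy chain, had 8, 0 and 0 counts in the naive libraries and 354, 151, 271 and 276 counts in the allografts (edgeR adjusted p = 0.235). Every allograft held it and 1 naive library did, at up to 9.48 CPM. Of its 75-base words 13.5% also occur in other genes, H2-K1 among them, so its counts are uncertain. H2-M3, which presents formylated peptides, had a log2 fold change of 0.70 (edgeR adjusted p = 0.776). Hfe, a regulator of iron uptake that does not present peptides, had 0 counts in naive replicates 1 and 3, 28.9 CPM in naive replicate 2 and 4.85 to 13.1 CPM in the allografts. Of the settings run, it passed the test only in the one without naive replicate 2 (edgeR adjusted p = 0.0344, against 0.977 with it).

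Of 20 genes of class I transcription and interferon gamma signalling, 14 were above 0 (10 without naive replicate 2). Their median was 0.37 (0.03 without that library). Irf1, an interferon-induced activator of class I and immunoproteasome genes, was at 149.6, 42.0 and 142 CPM in the naive libraries and at 58.1, 48.1, 46.6 and 31.0 CPM in the allografts. The allografts lay below naive replicates 1 and 3, and naive replicate 2 lay among them. For Irf1 the log2 fold change was −1.38 (SE 0.40, edgeR adjusted p = 0.277) and, without naive replicate 2, −1.71 (edgeR adjusted p = 0.0437). Irf9, an interferon regulatory factor of the type I response, had a log2 fold change of 1.35 (edgeR adjusted p = 0.532), without overlap between the groups. Ciita, the class II counterpart of Nlrc5, was at 15.4, 0.396 and 18.01 CPM against 15.1, 24.7, 17.2 and 20.7 CPM (log2 fold change 0.75, edgeR adjusted p = 0.884).

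**Figure D4:**
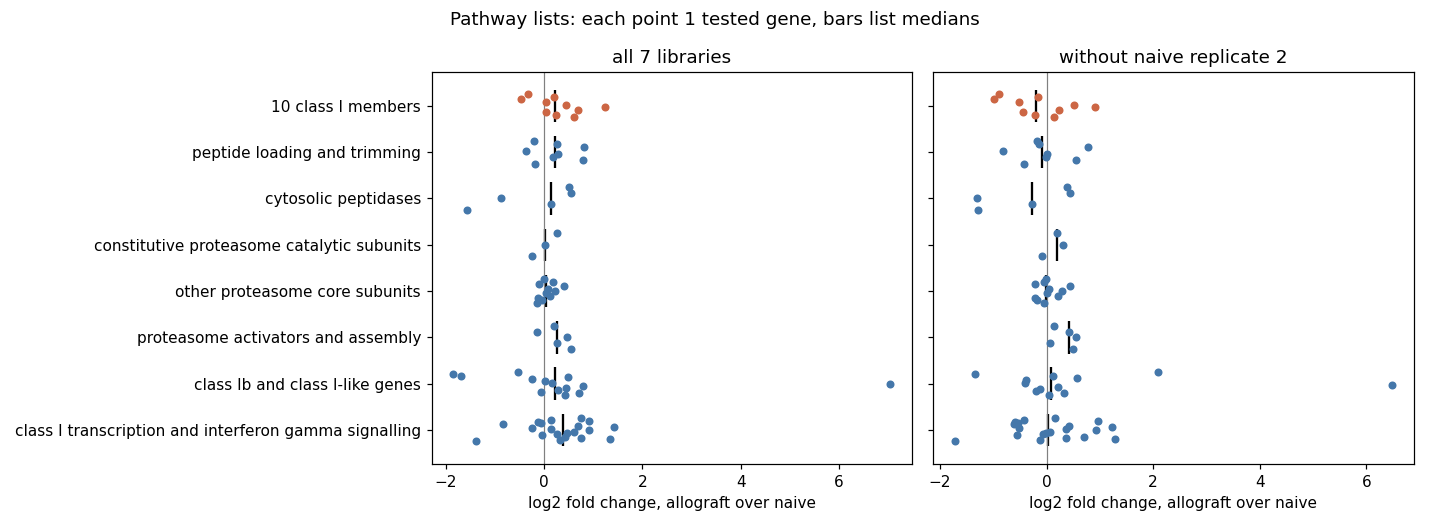
Fitted log2 fold change of every tested gene in the 10 class I genes and the 7 pathway lists, with all libraries (left) and without naive replicate 2 (right); bars are list medians. The point near 7 on the left is H2-Q10, whose fitted value rests on 8 naive counts, and H2-Q2 and Hfe are left out on the right because their naive libraries held at most 3 counts.

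The genes whose profile over the 7 libraries was most like the mean profile of the 10 were Cks2, Rap1b, Dapp1, Rps19-ps6 and Nt5c, with root mean square differences of 0.115 to 0.144 on the log2 scale among 4914 genes, whose median was 0.853. Among the 10 genes, B2m was closest to their mean profile (0.181) and Tapbp farthest (1.06). Naive replicate 2 was the lowest library for each of these 5, for example 19.04 CPM for Cks2 against 86.6 to 136 CPM elsewhere. Without that library the closest were Sap18b, Emc2, Gpx1, Eif6 and Bag1 (0.0515 to 0.0642), and none of the first 5 was among them.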

How the data were processed

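The authors deposited whole-number counts per gene and FPKM for the same 55335 Ensembl identifiers, 3225 of them without a symbol. Per the submitters' processing notes, FastQC 0.11.5, STAR 2.5.3a, StringTie 1.3.1c, DESeq2 1.16.1 and build mm10 were used. The annotation and any use of strand in counting are not given in the sources used here. Per the labels' protocols, RNA was purified on microcolumns and amplified as full-length cDNA with no molecular identifiers named, so reads are not independent molecules. Deposited FPKM and CPM differed by a factor per gene and a factor per library. B2m, for example, was at 8998 CPM and 9176 FPKM in naive replicate 1, and at 871 CPM and 931 FPKM in naive replicate 2. Beyond such factors the log2 ratio had an SD of at most 0.0035 over 7340 genes.

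Counts were tested with edgeR 4.0.16 under R 4.3.3: quasi-likelihood fit, TMM, filterByExpr and Benjamini-Hochberg adjustment over all genes, 7 libraries, no covariate. Fold changes are allograft over naive, and SE is implied by the F value. DESeq2 1.42.0 and limma 3.58.1 served as alternatives, besides other filters and scalings, H2 genes summed, a replicate block and each library left out. The labels do not say whether the numbers 1 to 3 shared by the groups pair the samples, and the main test used no pairing. P-values measure the spread between pooled libraries.

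The 10 genes and all lists were chosen with earlier results of these data known. Named are all 10; in each list the genes called, up to 4, otherwise the 2 with the smallest p; Psmb5, Psmb6, Psmb7, Psme1, Psme2, Irf1 and Ciita whatever their values (1 further gene named by this rule is not reported here); and the 5 genes of most like profile (average log2 CPM of at least 5, prior count 2). Hfe and Nfya were named after their values were seen. Summed markers also covered cardiomyocytes (at most 9.22 CPM, Tnnt2 and Ryr2 at 0 in every library) and fibroblasts (0.0566 to 141 CPM in naive libraries, 15.1 to 71.5 CPM in allografts). Shared sequence was counted as 75-base words of GENCODE M21 transcripts.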

Additional observations from a re-analysis of the deposited data

How the results depend on the processing

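None of the 10 genes passed the adjusted threshold under any of the 16 alternative settings; the lowest adjusted p was 0.1097, for Tap2. Of 158 refitted fold changes of the 10 genes, 142 kept their sign and their side of the threshold and 16 changed sign. The log2 fold change became −0.058 for B2m and −0.042 for Psmb8 with DESeq2 size factors and with DESeq2's Wald test, settings that moved the median of all genes from −0.01 to −0.20. On log2(FPKM + 1) with limma it became 0.10 for Psmb9 and 0.23 for Nlrc5, with the median of all genes at 0.21. Without naive replicate 2 (median of all genes 0.23) it became −0.22 for H2-D1, −0.44 for B2m, −0.51 for Psmb8 and −0.16 for Psmb10. Without naive replicate 3 it became −0.20 for Psmb8, 0.019 for Psmb9 and 0.26 for Nlrc5, and without allograft replicate 1 −0.10 for B2m. The cause was not tested. Leaving out each library in turn, the log2 fold change ranged from 0.14 to 0.93 for H2-K1, −0.22 to 0.58 for H2-D1, −0.44 to 0.70 for B2m, 0.24 to 1.21 for Tap1, 0.91 to 1.79 for Tap2, 0.00 to 0.97 for Tapbp, −0.51 to 1.43 for Psmb8, −0.98 to 0.02 for Psmb9, −0.16 to 0.58 for Psmb10 and −0.90 to 0.26 for Nlrc5. The count of pathway genes called was 4 with DESeq2's Wald test (5.95% of all genes called) and 0 to 2 when leaving out a library (2 without naive replicate 2, with 3.10% of all genes called), both near the share over all genes. Among the log2 ratios, leaving out each library gave −0.57 to 1.63 for Psmb8/Psmb5 (negative without naive replicate 2), −1.40 to 0.89 for Psmb9/Psmb6 (0.21 without naive replicate 1, 0.89 without naive replicate 3, 0.04 without allograft replicate 2), −0.41 to 0.40 for Psmb10/Psmb7 (−0.41 without naive replicate 2, −0.04 without allograft replicate 2), 0.34 to 0.73 for H2-K1/B2m, −0.079 to 0.34 for H2-D1/B2m (negative without naive replicate 1) and 0.32 to 0.52 for H2-K1/H2-D1. As a ratio of group means, Psmb10/Psmb7 was −0.12. With the replicate number as a block, same-numbered libraries did not deviate together (r = 0.02, −0.07 and 0.03 over genes for numbers 1 to 3). The block called 0 of 17015 genes after adjustment, and so 0 of the 10. At an unadjusted p under 0.05 it had 252 of the 17015, with 1 of the 10 among them (Tap2, edgeR unadjusted p = 0.0322). The block fit gave 0.012 for Psmb9 and 0.16 for Nlrc5, with the median of all genes at 0.55. The paired mean log2 differences of the ratios were 0.74 for Psmb8/Psmb5, −0.12 for Psmb9/Psmb6, 0.14 for Psmb10/Psmb7, 0.51 for H2-K1/B2m, 0.15 for H2-D1/B2m and 0.36 for H2-K1/H2-D1. Depth does not limit the counts of the 10 genes, whose lowest value was 4.79 CPM (Nlrc5 in naive replicate 2). The number of naive libraries and the state of naive replicate 2 limit the comparison.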
